A study of Mus musculus with 8 samples.

Results

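The elastic fibre and lysyl oxidase genes Eln, Fbn1, Fbln1, Fbln2, Fbln5, Lox, Loxl1, Loxl2, Mfap2 and Mfap5 were followed in cultured mouse aortic smooth muscle cells given a moR-21 mimetic or a scrambled control. Members were all probes of the array table that carry one of these 10 symbols. The table held 25697 probes with 18138 symbols, and 15 of the probes, with 9 of the 10 symbols, were members. No probe carried the symbol Loxl2, which is not analysed here. Of the 15 probes, 10 were detected on at least 1 array and tested, and these stood for 7 genes. Probes of Fbln5 and Mfap2 and the dimmest of 3 Fbln1 probes were not detected on any array.

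The cells were primary cultures grown out of pieces of several mouse aortas cleaned of adventitia, and every sample carried the same cells and transfection reagent. The control group was 3 samples transfected with a scrambled oligonucleotide, and the moR-21 group was 3 samples transfected with the moR-21 mimetic, in each case at 5 nM. RNA was taken at 48 h and hybridized to Illumina mouse BeadChips. Control sample 1 and moR-21 sample 3 had arrays A and B, so that 8 arrays gave values for 6 samples. The strain, sex and age of the donor mice are not given in the sources used here, and nothing says that the samples of a group came from separate cultures, so that the p-values measure the spread between these samples alone, which may be technical.

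Elastic fibres give the wall of the aorta its recoil. They consist of a core of elastin, secreted as a soluble monomer by smooth muscle cells, laid on a scaffold of fibrillin microfibrils that carry small glycoproteins of the MAGP family. Fibulins bring elastin, fibrillin and the cross-linking enzymes together, and the copper-dependent lysyl oxidases oxidize lysine residues of elastin and collagen so that the chains become covalently joined. Microfibrils also bind latent TGF-beta, and loss of fibrillin-1 function is the cause of Marfan syndrome, in which the aorta dilates.

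MicroRNA-offset RNAs such as moR-21 are cut from the microRNA hairpin right beside the mature microRNA. The region is shown because moR-21 is the agent whose effect was measured. The first line runs from the start of the RefSeq mouse hairpin Mir21a to the end of miR-21a-5p (GRCm38.p6, chr11:86584120-86584158, minus strand), with capitals on the 17 bases of the annotated hairpin that lie 5′ of the microRNA, the side moR-21 comes from. The ends of moR-21 are not marked. The binding sites of the paper's moR-21 sponge pair with a sequence that begins just before the start of the RefSeq hairpin, so moR-21 reaches beyond that start. The second line is the mature microRNA, with capitals on its seed, bases 2 to 8. The exact sequence of the transfected mimetic is not printed because no file used here holds it.
Mir21a hairpin start: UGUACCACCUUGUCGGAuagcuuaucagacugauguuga
miR-21a-5p: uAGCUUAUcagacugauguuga

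Among these genes the fibrillin-1 gene Fbn1 fell after the moR-21 mimetic, and it was the member with the largest difference. Loxl1, a lysyl oxidase of elastic tissue, and Mfap5, a microfibril glycoprotein, were also lower in all 3 moR-21 samples, by a smaller amount. Lox and the fibulin genes Fbln1 and Fbln2 did not pass the test, and Eln lay at background in controls, where only a bound on its level could be had. Values below are log2 intensities after quantile normalization of the 8 arrays, with the arrays of a sample averaged. A gene was called at the cutoffs of the study, a change over 1.3-fold (0.379 on the log2 scale) together with a limma p under 0.002 after Benjamini-Hochberg adjustment over all 11651 tested probes, and it was read at its brightest detected probe. The call was made for 1 of the 7 tested members in the lower direction, Fbn1, and for 0 in the higher direction. Over all 8727 tested genes 4.38% were called lower and 3.41% higher. At an adjusted p under 0.05 with no limit on the fold, 3 of the 7 members were lower and 0 higher, against 17.3% and 18.8% of all tested genes.

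**Figure D1:**
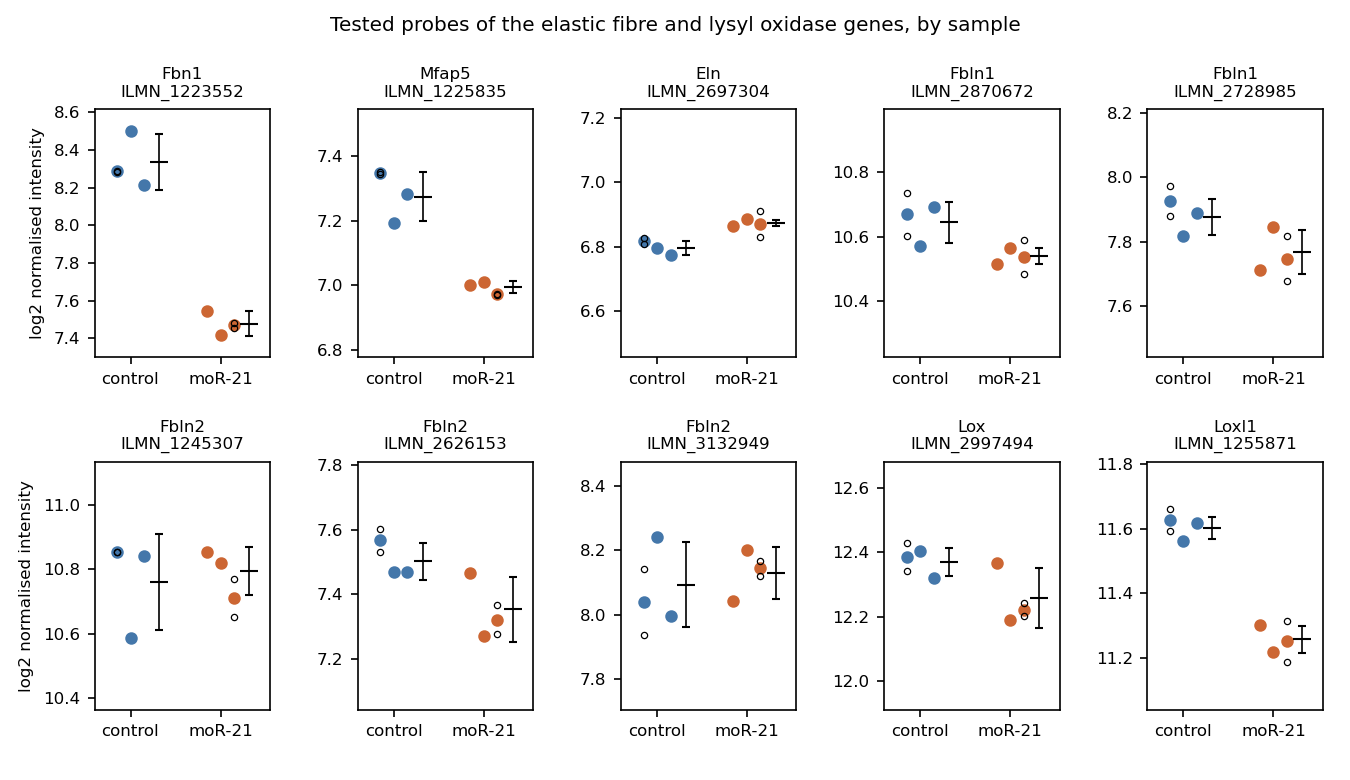
Log2 normalised intensity of each of the 10 tested member probes, with its own scale per panel, in the 3 control samples (blue) and the 3 moR-21 samples (orange). Filled points are samples, small open points are the A and B arrays of control sample 1 and moR-21 sample 3, and bars give the mean and SD. The groups stand farthest apart for Fbn1, at a mean of 8.33 against 7.48, and overlap for the brightest Fbln2 probe.

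Fbn1 encodes fibrillin-1, the main protein of the microfibrils on which elastin is deposited. The gene lies on chromosome 2 of GRCm38.p6, from 125300594 to 125506485, and was read by probe ILMN_1223552, which was detected on all 8 arrays. Its log2 intensity was 8.29, 8.50 and 8.22 in control samples 1, 2 and 3 and 7.55, 7.42 and 7.47 in moR-21 samples 1, 2 and 3. Every moR-21 sample lay below every control sample, and control sample 2 was the highest of the 6. The repeat arrays gave 8.29 and 8.28 for control sample 1 and 7.46 and 7.48 for moR-21 sample 3, so that arrays of a sample differed far less than the groups did. The mean was 8.33 ± 0.149 (SD, n = 3) in controls and 7.48 ± 0.0649 (SD, n = 3) after the mimetic. The log2 fold change was −0.86 (standard error 0.0666, 95% confidence interval −1.0 to −0.71), a 1.81-fold lower intensity, with a limma adjusted p of 3.47e-07. Only 0.527% of the tested genes had a larger fall. The size of the change depends on the background, since the deposited intensities were 289 to 346 on the control arrays and 166 to 191 on the moR-21 arrays, and the dimmest detected probe of each of the 8 arrays read 111 to 118. With normexp background correction the log2 fold change of Fbn1 was −1.33.

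Mfap5 encodes MAGP-2, a glycoprotein bound along fibrillin microfibrils. It lies on chromosome 6 of GRCm38.p6, from 122513584 to 122529290, and its probe ILMN_1225835 was detected on all 8 arrays. Its log2 intensity was 7.35, 7.19 and 7.28 in control samples 1, 2 and 3 and 7.00, 7.01 and 6.97 in moR-21 samples 1, 2 and 3. The groups did not overlap, and the moR-21 samples lay closer together than the controls. The mean was different by −0.28 (standard error 0.0498, 95% confidence interval −0.39 to −0.17) on the log2 scale, with 5.76e-04 as the adjusted p of limma. This passed the cutoff on p but not the cutoff on fold, and Mfap5 was therefore not called. The probe was dim, at deposited intensities of 123 to 130 after the mimetic, and normexp background correction moved its log2 fold change to −0.69, at which it was called (limma adjusted p = 8.91e-04).

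Mfap2, which encodes MAGP-1, the other glycoprotein of this pair, was represented by 3 probes. They read between 94.0 and 112 over the 8 arrays before normalization, with detection p-values from 0.0251 to 0.878, which is not well above background, and no difference is given for them. Microfibrils can also hold fibrillin-2, the product of Fbn2, for which no probe carried the symbol and which is not analysed here.

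Eln encodes tropoelastin, the soluble form of elastin. Its probe ILMN_2697304 was close to background in both groups. On the 4 control arrays its detection p-value was between 0.0125 and 0.0263, so that it was not detected at the threshold of 0.01 there, and on the 4 moR-21 arrays it was between 0 and 0.00501. The probe thus entered the test through the moR-21 arrays alone, and its direction cannot be separated from that entry. Its log2 intensity was 6.82, 6.79 and 6.77 in control samples 1, 2 and 3 and 6.86, 6.88 and 6.87 in moR-21 samples 1, 2 and 3. All moR-21 samples were above all controls, but by a difference of 0.08 (95% confidence interval −0.02 to 0.17, standard error 0.0438) that did not pass the test (limma adjusted p = 0.196). Taking the lowest detected signal of each control array as a bound gave a mean of 6.83 for controls against 6.87, a difference of 0.04 on the log2 scale. With normexp background correction the log2 fold change of Eln was 0.28 (limma adjusted p = 0.0205), so that both its size and its place relative to 0.05 depend on how background is treated.

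**Figure D2:**
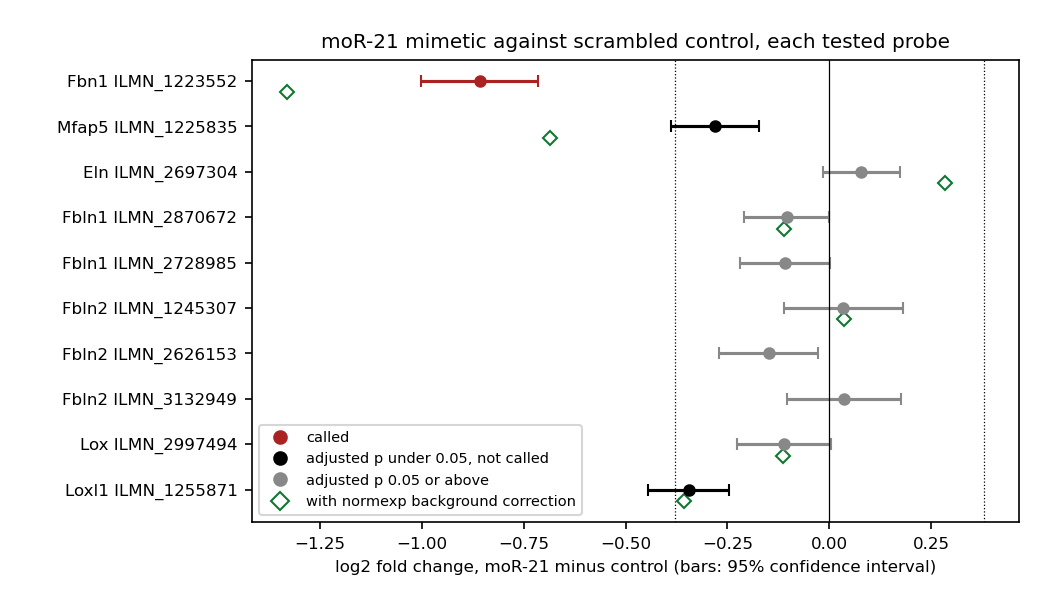
Log2 fold change of moR-21 minus control for each of the 10 tested probes (points) with 95% confidence intervals from limma (bars). Dotted lines mark the 1.3-fold cutoff, and green diamonds give the brightest probe of each gene after normexp background correction. Only the interval of Fbn1, −1.0 to −0.71, lies wholly beyond the cutoff, and the dim probes of Fbn1, Mfap5 and Eln moved most with background correction.

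The fibulins differed little. Fbln1 encodes fibulin-1, a matrix glycoprotein of elastic fibres and basement membranes, and both of its detected probes were slightly lower after the mimetic. The brighter, ILMN_2870672, read 10.67, 10.57 and 10.69 in control samples 1, 2 and 3 and 10.52, 10.57 and 10.54 in moR-21 samples 1, 2 and 3. The groups nearly touched without overlapping, and the log2 fold change was −0.10 (standard error 0.0483, limma adjusted p = 0.116). The dimmer probe, ILMN_2728985, had overlapping groups and a log2 fold change of −0.11, with a standard error of 0.0513 and 0.123 as the limma adjusted p.

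Fbln2 encodes fibulin-2, which binds tropoelastin and fibrillin-1, and its 3 detected probes did not point one way. The brightest, ILMN_1245307, designed to transcript variant 2, read 10.85, 10.59 and 10.84 in control samples 1, 2 and 3 and 10.85, 10.82 and 10.71 in moR-21 samples 1, 2 and 3. The groups overlapped, with control sample 2 the lowest of all, and the log2 fold change was 0.03 (95% confidence interval −0.11 to 0.18, standard error 0.0679, limma adjusted p = 0.750). Without control sample 2 it was −0.05, so that its sign rests on that sample. The other probe designed to variant 2, ILMN_3132949, gave 0.04 (standard error 0.0646). ILMN_2626153, the only Fbln2 probe designed to variant 1, gave −0.15 (standard error 0.0564, 95% confidence interval −0.27 to −0.03), with moR-21 samples at 7.47, 7.27 and 7.32 just under the controls at 7.57, 7.47 and 7.47. Its limma adjusted p of 0.0565 missed 0.05, and the difference between the probes was not tested. Fbln5 encodes fibulin-5, an elastin-binding protein required for elastic fibre assembly, and its probe read between 89.8 and 100.3 before normalization, with detection p-values from 0.427 to 0.981, not well above background on any of the 8 arrays.

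Of the lysyl oxidases, Loxl1 was lower in every moR-21 sample and Lox was not. Loxl1, whose enzyme is needed to maintain elastic fibres in adult tissue, lies on chromosome 9 of GRCm38.p6, from 58287723 to 58313212, and its probe ILMN_1255871 was detected on all 8 arrays. Its log2 intensity was 11.63, 11.56 and 11.62 in control samples 1, 2 and 3 and 11.30, 11.22 and 11.25 in moR-21 samples 1, 2 and 3. The groups lay well apart, with SDs of 0.0349 in controls and 0.0417 after the mimetic. The log2 fold change was −0.35 (95% confidence interval −0.44 to −0.25, standard error 0.0464, limma adjusted p = 5.74e-05), a 1.27-fold lower intensity that fell short of the 1.3-fold cutoff. Only cyclic loess scaling brought it over the cutoff, at −0.38.

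Lox encodes lysyl oxidase itself, the enzyme that cross-links elastin and collagen. Its probe ILMN_2997494 read 12.38, 12.40 and 12.32 in control samples 1, 2 and 3 and 12.37, 12.19 and 12.22 in moR-21 samples 1, 2 and 3. The groups overlapped through moR-21 sample 1, which lay above control sample 3. The log2 fold change was −0.11 (95% confidence interval −0.23 to 0.00, standard error 0.0539, limma adjusted p = 0.135). Without moR-21 sample 1 it was −0.16 with a limma adjusted p of 0.0290. The difference between the changes of Lox and Loxl1 was not tested.

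Over the 7 tested members the median log2 fold change was −0.11, where it was 0.01 over all tested genes, and 5 members were lower and 2 higher by sign. Without Eln, which passed the detection filter on moR-21 arrays alone, the median of the other 6 was −0.20. All moR-21 samples lay below all controls for 4 of the 7 members and above them for 1, against 21.9% and 24.4% of all tested genes. The member above is Eln, which entered the test through the group where it is higher, and its separation therefore adds nothing to the count. For 3 samples against 3 the smallest two-sided exact permutation p is 0.1, so that such a separation alone cannot pass 0.05. The members thus spread from a large fall in Fbn1 to values near 0, as the plot of all tested genes shows.

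**Figure D3:**
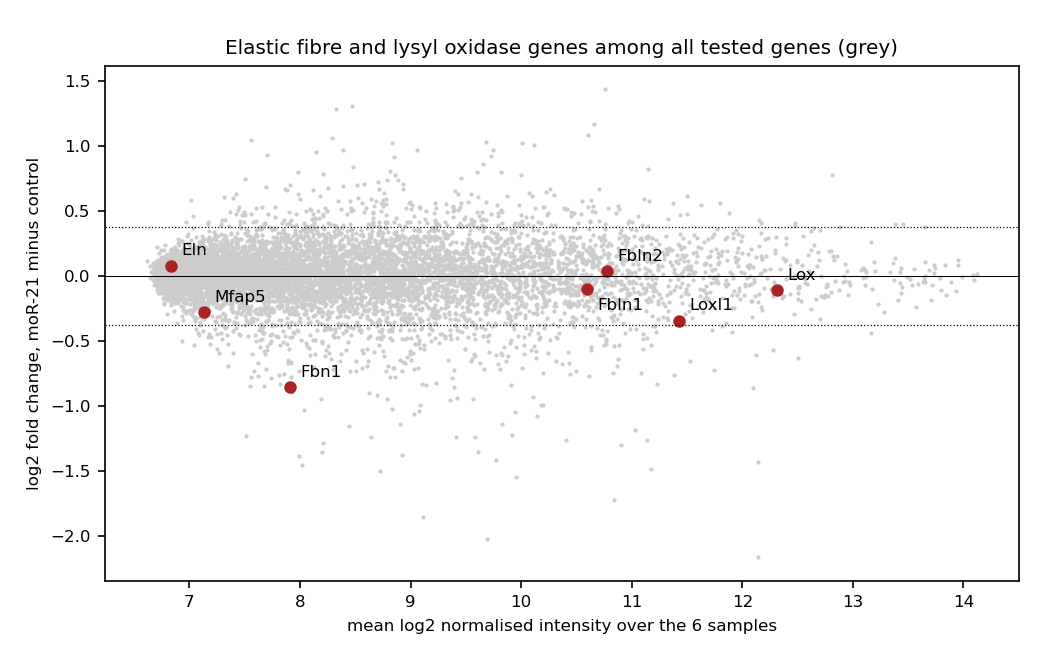
Log2 fold change of moR-21 minus control against mean log2 normalised intensity over the 6 samples, for the 8727 tested genes at their brightest detected probe (grey) and the 7 tested members (red). Dotted lines mark the 1.3-fold cutoff. Fbn1 at −0.86 lies below the dense band of grey points, Loxl1 and Mfap5 lie between 0 and the cutoff, and the others lie close to 0.

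Of 22 related genes of elastic fibres and microfibrils, 12 were tested, and 1 was called higher and 0 lower. Of all tested genes, 3.41% were called higher and 4.38% lower. At an adjusted p under 0.05 there were 5 lower and 1 higher, against 17.3% and 18.8% of all tested genes. The median was −0.10. The gene called higher was Mfap3, a microfibril-associated protein gene of a family unrelated to the MAGPs, whose log2 intensity was 9.03, 9.06 and 9.06 in control samples 1, 2 and 3 and 9.62, 9.62 and 9.56 in moR-21 samples 1, 2 and 3. It rose by 0.55 on the log2 scale (limma adjusted p = 6.18e-07, standard error 0.0451), and its dimmer probe was also called, at 0.46. Emilin2, an elastin microfibril interface protein gene, had the lowest value of the list, −0.33 (standard error 0.0469, limma adjusted p = 9.50e-05), short of the fold cutoff. The others lower at an adjusted p under 0.05 were Dcn (−0.22), the latent TGF-beta binding protein gene Ltbp4 (−0.20), Emilin1 (−0.15) and Adamtsl4 (−0.13). Efemp2, which encodes fibulin-4, a protein that brings lysyl oxidase to tropoelastin, gave −0.01 (standard error 0.0501). Probes of Efemp1, Fbln7 and Mfap4 were not detected on any array.

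Of 9 genes for other lysyl oxidases, their processing and their copper, 6 were tested, and 1 was called lower and 0 higher, with a median of 0.04. With no limit on the fold, an adjusted p under 0.05 was reached by 2 lower and 0 higher genes, Bmp1 and Pcolce. Over all tested genes the shares were 17.3% lower and 18.8% higher at that adjusted p, and 4.38% were called lower and 3.41% higher. Pcolce, a gene for an enhancer of procollagen processing by Bmp1, gave −0.19. The gene called lower was Bmp1, the protease that releases active lysyl oxidase from its proenzyme and also trims procollagen. It read 11.45, 11.33 and 11.27 in control samples 1, 2 and 3 and 11.01, 10.73 and 10.85 in moR-21 samples 1, 2 and 3, with no overlap. Its log2 fold change was −0.49 (standard error 0.0681, limma adjusted p = 8.42e-05), and of its 3 dimmer probes 1 was also called, at −0.42, and the others gave −0.32 and −0.03. Bmp1 lost the call under median scaling (limma adjusted p = 0.00211) and normexp background correction (limma adjusted p = 0.00422), with log2 fold changes of −0.50 in each. The copper transporter genes Atp7a and Slc31a1 and the copper chaperone gene Atox1 gave 0.10, 0.11 and 0.12, and none passed an adjusted p of 0.05. Loxl4 gave −0.02 (standard error 0.0477), and the Loxl3 probe was not detected on any array.

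Of 16 genes for the breakdown or binding of elastin, 13 were tested, with 1 called lower and 2 higher and a median of 0.04. Among all tested genes 4.38% were called lower and 3.41% higher. At an adjusted p under 0.05 there were 6 lower and 3 higher, against 17.3% and 18.8% of all tested genes. The 6 include Ctsl, which entered the test through the control arrays alone, where it is higher. It therefore adds nothing to the count. Mmp14, a membrane-bound metalloproteinase that activates Mmp2, fell by 0.44 on the log2 scale (standard error 0.0488, limma adjusted p = 9.77e-06), while Mmp2 itself, a gelatinase that can degrade elastin, gave 0.13 (standard error 0.0496, limma adjusted p = 0.0532). Timp3, a matrix-bound inhibitor of metalloproteinases, rose by 0.56 (standard error 0.0628, limma adjusted p = 1.18e-05), and a probe of Timp3 at background gave 0.02. Ctsa, whose product joins the elastin receptor complex with Glb1 and Neu1, was called higher at its brightest probe, 0.51 (standard error 0.0539, limma adjusted p = 6.56e-06). Of its other probes detected on all 8 arrays, 1 gave −0.21 and 1 gave −0.09. No direction is therefore given for the gene, although the counts of higher genes above include it. Glb1 and Neu1 gave −0.32 and −0.15, neither of them called. Of the others under an adjusted p of 0.05, the integrin genes Itgb5 and Itgav gave −0.30 and −0.26, Timp2 gave 0.21, and Ctsl was detected on the 4 control arrays alone. Itgav was detected on 1 of the 4 moR-21 arrays.

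**Figure D4:**
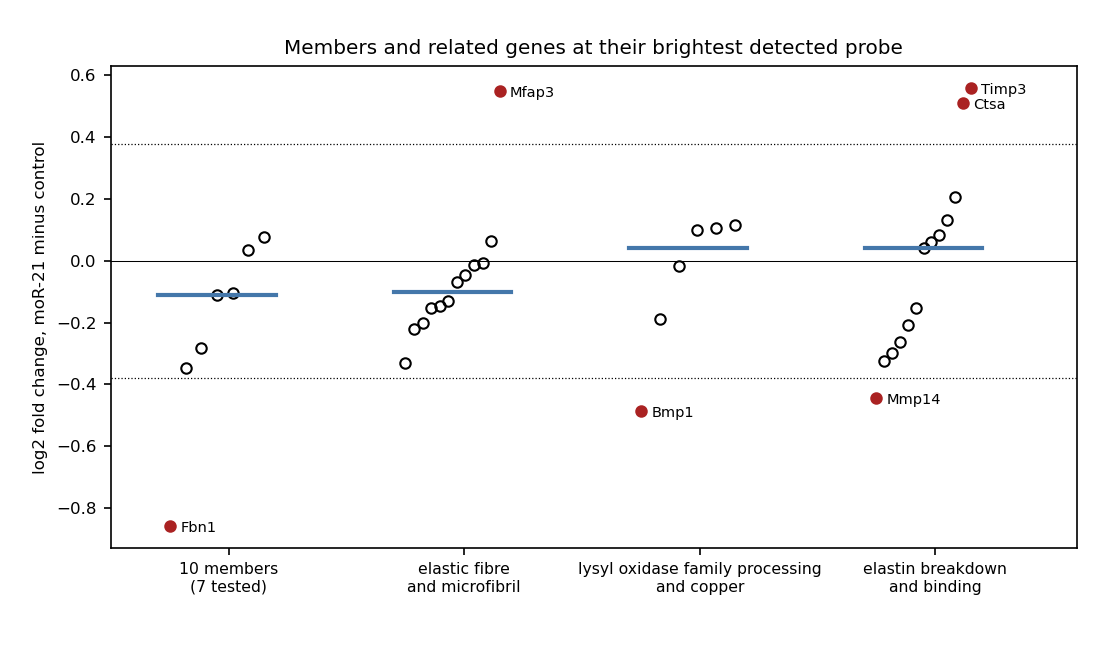
Log2 fold change of moR-21 minus control for the 7 tested members and the tested genes of the 3 related lists, each at its brightest detected probe. Filled points were called, open points were not, blue lines are list medians, and dotted lines mark the 1.3-fold cutoff. Each list holds values on both sides of 0, and the genes called were Fbn1, Bmp1 and Mmp14 on the lower side and Mfap3, Timp3 and the brightest Ctsa probe on the higher side.

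The arrays were alike in depth, with 10285 to 10512 probes detected on each, and the number of samples limits the precision. The cell type was checked on fixed marker lists, because the labels use abbreviations of both smooth muscle and endothelial cells. Of 7 endothelial markers 6 were not detected on any array, and Vwf, the last, was detected on all 8 arrays, with a mean log2 intensity of 6.89 in controls and 6.94 after the mimetic and overlapping groups. The Vwf probe lay near the floor, at deposited intensities of 115 to 131, where the dimmest detected probe of each array read 111 to 118. Of 7 smooth muscle markers on the array 4 were tested. Acta2, smooth muscle actin, was detected on all 8 arrays and was called higher after the mimetic at all 4 of its probes, by 0.40 to 0.81 on the log2 scale. The other 3 were not called, with −0.05 for the brightest Smtn probe, 0.05 for Lmod1, which was detected on 3 of 8 arrays, and Tagln detected on the 4 moR-21 arrays alone. The contractile markers Cnn1, Myh11 and Actg2 were not detected on any array. In bulk RNA, fewer cells of a type and less RNA per cell cannot be told apart.

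Some markers of other cell types also differed between the groups. The other markers of each list were not called, went the other way or were not detected, so the sums below rest on few markers. Of 5 fibroblast markers 4 were tested, and their summed linear intensity was 4690 to 4953 in control samples and 4149 to 4361 in moR-21 samples. Among them Lum was called lower (−0.56) and Thy1 higher (0.53), Pdgfra gave −0.17 without being called, Pi16 was detected on the 4 control arrays alone, and Dpt was not detected. Of 6 mesothelial markers 2 were tested, with summed intensities of 771 to 780 in controls and 402 to 416 after the mimetic. Upk3b was called lower (−1.24) and Krt19, with overlapping groups, gave −0.13 (limma adjusted p = 0.115), while Msln, Upk1b and Lrrn4 were not detected on any array. Of 5 macrophage markers 2 were tested, with sums of 274 to 279 in controls and 333 to 343 after the mimetic. Lyz2 was called higher (0.48), Csf1r gave −0.01, and Ptprc, Cd68 and Emr1 were not detected. The part of other cell types in the values of Fbn1, Loxl1 and Mfap5 was not tested.

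**Figure D5:**
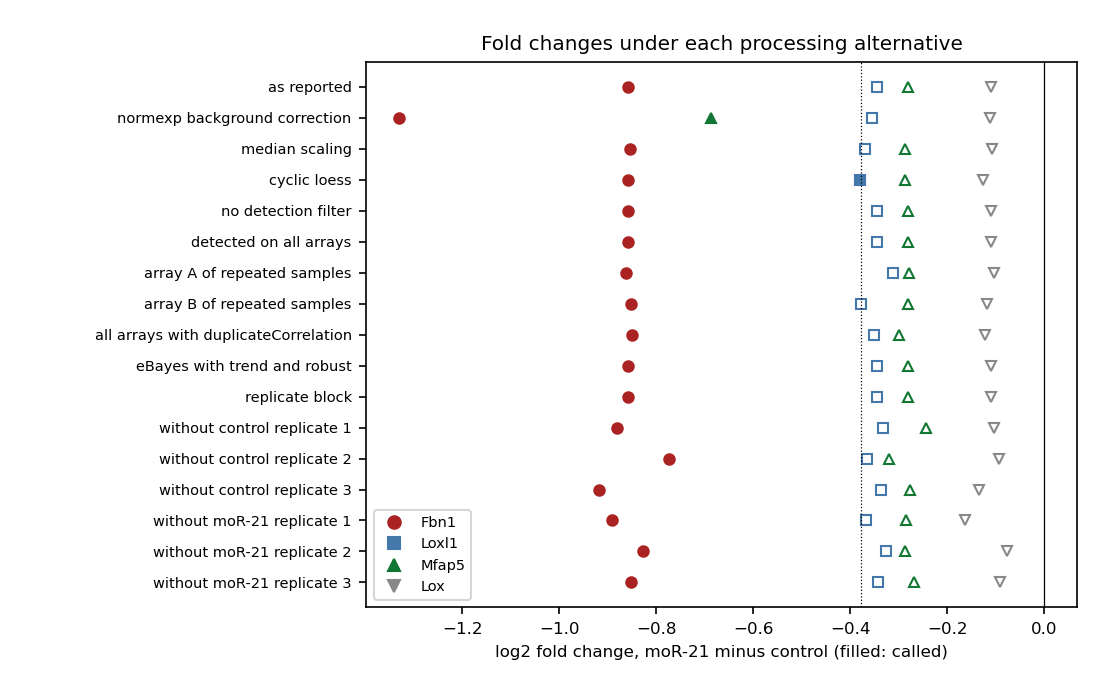
Log2 fold change of moR-21 minus control for Fbn1, Loxl1, Mfap5 and Lox as reported (top line) and under each alternative of normalization, filter, array choice, model and left-out sample. Filled symbols were called, and the dotted line marks the 1.3-fold cutoff. Fbn1 stays beyond the cutoff on every line, from −1.33 to −0.77, and Loxl1 and Mfap5 cross it on 1 line each.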

How the data were processed

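RNA of 6 samples was measured on 8 Illumina BeadChip arrays. The authors deposited a probe intensity for each array, non-normalized and with no background correction stated, and beside it the deposited detection p-value against negative control beads. Columns were assigned to samples by name, with 0 left over. Intensities were quantile normalized over the 8 arrays and log2 transformed, and arrays of a sample were averaged. limma 3.58.1 (R 4.3.3; lmFit, eBayes) compared the treatments over probes with a detection p under 0.01 on at least 1 array, with Benjamini-Hochberg adjustment over all of them and no covariate. The normalization, test and cutoffs follow the methods of the study. All members were named with every probe, and of the related lists the genes called and the paralogs of members. Other genes of these lists were chosen after their values were seen, namely those under an adjusted p of 0.05, the copper genes and Mmp2. Members, lists and cutoffs were chosen with earlier results of these data known. Alternatives were normexp (offset 16), median and cyclic loess scaling, other detection filters, array A or B alone, duplicateCorrelation over 8 arrays, a robust eBayes fit with an intensity trend, a block for the replicate number, fits leaving out single samples, an adjusted p under 0.05, a fold over 1.5, and the mean over a gene's detected probes. Gene positions are from RefSeq on GRCm38.p6, where all 10 symbols matched, and the array table gives no coordinates. The methods name BeadStudio and more than one mouse array design, and the submitters' processing notes name lumi. Without background subtraction, differences at dim probes are compressed.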

Additional observations from a re-analysis of the deposited data

How the results depend on the processing

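The count of members called lower was 1 as reported. It was 2 with normexp background correction, which added Mfap5 (log2 fold change −0.69) and brought Eln to 0.28, under an adjusted p of 0.05 but not called, and 2 with cyclic loess, which added Loxl1 (−0.38). With each sample left out in turn it was 1 throughout, and 0 members were called higher under any alternative. Fbn1 was called under all alternatives, between −1.33 (normexp) and −0.77 (without control sample 2). The brightest Fbln2 probe, not called, ranged from −0.052 (without control sample 2) to 0.081 (without control sample 1) with each sample left out, and its log2 fold change was also below 0 over all arrays with duplicateCorrelation (−6.65e-04), as did the mean over its detected probes (−0.026). Of the related genes, 2 were called lower and 3 higher as reported. The 3 higher include Ctsa, which was called at its brightest probe alone. With normexp 3 were called lower, with Ctsl and Itgav in place of Bmp1. Ctsl entered the test through the control arrays alone, where it is higher, so its call adds nothing. Itgav was detected on 4 control arrays and 1 moR-21 array. Median scaling left 1 lower, without Bmp1, and a fold cutoff of 1.5 left 0 lower and 0 higher. Causes of these shifts were not tested. Samples of different groups share replicate numbers, but their deviations from the group means correlated at 0.19, 0.04 and 0.06 for numbers 1, 2 and 3, so the numbers were not taken to pair the samples. With the replicate number as a block, 1 member was called lower, Fbn1, with a limma adjusted p of 2.43e-09, and no other call changed. Signal over background limits Mfap5, Eln, Mfap2 and Fbln5, whose probes lay near the floor of the arrays.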

Other observations

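The array holds a probe, ILMN_2727638, for the predicted transcript LOC100047339, described in the table as similar to lysyl oxidase-like 2. It was singled out after its values were seen, because its description names Loxl2, and whether it measures that gene was not tested. It was detected on all 8 arrays, with a log2 intensity of 7.06 in controls and 7.15 after the mimetic, a difference of 0.09 (standard error 0.0607, limma adjusted p = 0.297), and the groups overlapped. A search of the probe descriptions for lysyl oxidase-like 2 and fibrillin 2 also found probe ILMN_1255033, for LOC100047082. That probe was not detected on any array.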
